A study of Mus musculus with 8 samples.

Results

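The genes examined here encode integrins, the cell-surface receptors of the extracellular matrix, and laminins, the matrix proteins that several of these receptors bind. They were followed in a DRIP-seq experiment on mouse muscle stem cells (MuSCs), in which the S9.6 antibody pulls down the DNA of R-loops, and the signal over each peak is given as a score scaled to a Drosophila spike-in. Members were all autosomal peaks that the peak table assigned to a protein-coding gene whose symbol starts with Itga or Itgb, or with Lama, Lamb or Lamc followed by a digit. This gave 110 of the 28265 peaks, in 23 genes. Of these, 103 passed the level filter, a mean score over 30 across the 6 libraries, and were tested. A peak weak in 3 libraries of a genotype could pass this filter through the scores of the other genotype.

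The 2 groups were control MuSCs (Ctrl, labelled WT, genotype Pax7CreERT/Suv4-20h1WT) and MuSCs labelled SH1sKO (genotype Pax7CreERT/Suv4-20h1KO). Suv4-20h1 is the older name of Kmt5b, a histone H4 lysine 20 dimethyltransferase, and the second group is called Kmt5b sKO here. Each had 3 S9.6 libraries, and 1 input library per genotype had no values used here. Both genotypes carry the tamoxifen-inducible Cre driven by Pax7, which restricts recombination to Pax7-expressing cells. The labels give no age or sex and do not link a library to an animal. P-values therefore concern differences between these libraries. Their variances came from a trend over all peaks or genes. A very small p is thus no measure of how closely the 3 libraries of a group lay together.

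Integrins are heterodimers of an alpha and a beta chain. In muscle, MuSCs sit between the muscle fibre and its basement membrane and use integrins, in particular the laminin receptor made of Itga7 and Itgb1, to hold on to that matrix. The study describes the profiled cells as proliferating MuSCs, and its purified MuSCs were cultured on plates coated with Matrigel. Laminins are trimers of an alpha, a beta and a gamma chain, and Lama2 is the alpha chain of the main muscle basement membrane laminin, in which it pairs with Lamb1 or Lamb2 and with Lamc1. An R-loop forms where a transcript pairs with its template strand and displaces the other DNA strand. It is favoured by a transcript rich in G. The S9.6 signal measures these hybrids and not gene expression, so a higher score says nothing on how much of a chain a cell makes.

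In Kmt5b sKO MuSCs, R-loop signal rose on the laminin beta chain genes Lamb1 and Lamb3, while the third beta chain gene, Lamb2, was not called. All 6 Lamb1 peaks and both Lamb3 peaks were called higher. Among integrin genes it rose at Itgav, Itga9, Itga11, Itgb3 and Itgb4, while Itgb1, Itgb6, Itga6 and the laminin genes Lama2 and Lamc1 were not called at the level of the whole gene. The Itga9, Itga11 and Itgb3 peaks have only 1000 to 1400 bp. At such lengths 44.1 to 55.7% of other gene-body peaks were called higher. A peak or gene was called where the Benjamini-Hochberg adjusted p of the limma fit was under 0.1 and the fold change exceeded 1.5 in either direction. By this rule 34 of 103 tested member peaks were higher (33.0%) and 1 was lower, against 32.9% higher and 0.883% lower among all 25815 tested peaks. In the gene bodies of the other protein-coding genes 22.9% of 19968 peaks were higher and 1.05% were lower. All member peaks but 1 are gene-body peaks, and the log2 fold change of the member genes ran from −0.16 in Itgb6 to 1.53 in Lamb3.

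The libraries differed in overall level, which bears on each value below. The summed autosomal score was from 3848297 to 4669752 in Ctrl and from 4639231 to 4867664 in Kmt5b sKO, with Ctrl replicate 2 well above the other Ctrl libraries. Member peaks took 0.304 to 0.326% of this sum in Ctrl and 0.331 to 0.337% in Kmt5b sKO. The targeted gene carried 1 peak, with scores of 412, 658 and 420 in Ctrl and 440, 449 and 484 in Kmt5b sKO, which does not check the genotype. Of 12 MuSC marker genes 7 carried a peak, Pax7 among them, whereas Myf5, Cdh15, Vcam1, Calcr and Cd34 carried none. None of 5 fibro-adipogenic and none of 5 haematopoietic marker genes carried a peak. Endothelial markers had a peak in 2 of 4 genes, with summed means of 186 in Ctrl and 330 in Kmt5b sKO, and myofibre markers in 2 of 5, of which Ttn had 9134 and 5523. Absence of a peak is no measure of expression, and the part of other cells in the results was not tested.

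The sequences under 3 broad or intragenic peaks are shown first, because those of Lamb3 and Lamb1 were called higher and that of Itgb6 had a negative fold change. Each is the central 300 bases of the peak on the coding strand (GRCm38 reference genome), and capitals mark runs of at least 3 G.

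Lamb3, centre of the peak at the gene end, chr1:193341751-193342050, plus strand: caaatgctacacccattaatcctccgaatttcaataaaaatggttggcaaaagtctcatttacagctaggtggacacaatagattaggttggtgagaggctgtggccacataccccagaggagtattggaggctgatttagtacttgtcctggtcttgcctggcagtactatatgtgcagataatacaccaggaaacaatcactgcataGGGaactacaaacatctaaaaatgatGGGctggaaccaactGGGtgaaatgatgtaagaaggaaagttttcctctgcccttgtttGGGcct

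Lamb1, centre of the intragenic peak with the largest fold change, chr12:31297051-31297350, plus strand: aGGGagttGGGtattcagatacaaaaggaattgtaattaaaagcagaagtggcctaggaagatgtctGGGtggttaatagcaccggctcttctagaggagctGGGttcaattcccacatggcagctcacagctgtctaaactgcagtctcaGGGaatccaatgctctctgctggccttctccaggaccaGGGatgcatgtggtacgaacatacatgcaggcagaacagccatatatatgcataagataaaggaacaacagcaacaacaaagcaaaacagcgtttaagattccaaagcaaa

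Itgb6, centre of the peak with the lowest fold change of the gene, chr2:60646251-60646550, minus strand: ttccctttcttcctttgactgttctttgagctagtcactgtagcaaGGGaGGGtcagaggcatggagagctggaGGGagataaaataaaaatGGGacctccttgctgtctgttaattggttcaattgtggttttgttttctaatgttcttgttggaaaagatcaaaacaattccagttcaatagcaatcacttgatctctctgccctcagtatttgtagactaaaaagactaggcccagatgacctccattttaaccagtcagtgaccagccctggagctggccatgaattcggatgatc

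The Lamb3 window held 4 GGG triplets, the Lamb1 window 6 and the Itgb6 window 4. Of 20069 central windows of tested protein-coding gene-body peaks, 41.8% held at least 4, 18.7% held at least 6 and 91.2% held at least 1. The letters therefore do not set the Lamb3 window apart from the Itgb6 window. Over whole peaks, GC skew, the excess of G over C on the coding strand divided by their sum, was positive in 6 of 6 Lamb1 peaks. Its median was 0.04 over tested member peaks and 0.05 over the other gene-body peaks.

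The laminin beta chains had the highest share of called peaks. Of 9 tested peaks 8 were called higher (88.9%), with a median log2 fold change of 1.02, against 22.9% and a median of 0.25 over the other gene-body peaks. In the 8 called peaks the gain was close to a doubling of the score or above it, apart from a single Lamb1 peak at 0.63.

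Lamb3, a chain of the epithelial laminin of hemidesmosomes, held the largest change at the gene level. Its gene-summed score was 231, 187 and 141 in the 3 Ctrl libraries and 465, 596 and 531 in the 3 Kmt5b sKO libraries. Each Kmt5b sKO value was above every Ctrl value, which gave a log2 fold change of 1.53 (standard error, SE, of 0.15, adjusted p = 3.5e-22). In the fit with the gene's own variance the adjusted p was 0.033. Most of the signal came from a peak of 7800 bp at the end of the gene, at chr1:193338000-193345799, which overlapped 5 exons. This peak scored 194, 145 and 109 in Ctrl and 394, 519 and 446 in Kmt5b sKO, a log2 fold change of 1.62 (SE 0.16, adjusted p = 7.1e-22, and 0.047 in the fit with its own variance). Broad peaks rarely moved this far. Of 1630 other gene-body peaks within 20% of its length, 5.40% were called higher and their median log2 fold change was 0.11. The other Lamb3 peak, of 1600 bp, scored 37, 42 and 32 against 71, 77 and 85 (log2 fold change 1.05, SE 0.26), and it overlaps G0s2, a gene on the other strand, so its signal cannot be assigned to either gene.

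Lamb1, the beta chain of the laminin of embryonic and adult muscle basement membrane, gained along its whole measured length. Its summed score was 710, 697 and 596 in Ctrl and 1318, 1402 and 1283 in Kmt5b sKO. The groups did not overlap, and the log2 fold change was 1.00 (SE 0.13, adjusted p = 2.0e-12, and 0.019 in the fit with the gene's own variance). The 6 peaks covered 38.5% of a gene of 64.4 kb, with their centres from 16.2% to 72.3% of the way from the transcription start site (TSS) to the gene end. Their log2 fold changes were 1.02, 0.91, 0.63, 1.11, 1.10 and 0.94 in that order, so that neighbouring peaks over introns and exons moved by similar amounts. The 7200 bp peak at chr12:31293600-31300799, which overlaps 4 exons, scored 212, 192 and 162 in Ctrl and 385, 440 and 396 in Kmt5b sKO. Among 1884 other gene-body peaks of like length 6.21% were called higher, and 99.6% had a fold change no greater than that of this peak. The 800 bp peak was the exception within the gene, since it had scores of 39, 45 and 33 against 57, 44 and 87, and its groups overlapped (adjusted p = 0.065).

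Lamb2 is the other beta chain of muscle laminins and is concentrated at the neuromuscular junction. It carried 1 peak of 13200 bp that is longer than the gene and also covers part of Usp19, so the signal is shared. It scored 554, 655 and 572 in Ctrl and 846, 767 and 744 in Kmt5b sKO. All Kmt5b sKO libraries were above all Ctrl libraries, but the log2 fold change of 0.41 (SE 0.14, adjusted p = 0.012) was short of the fold threshold, and it was −0.05 once every library was centred on the median of its peaks.

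**Figure D1:**
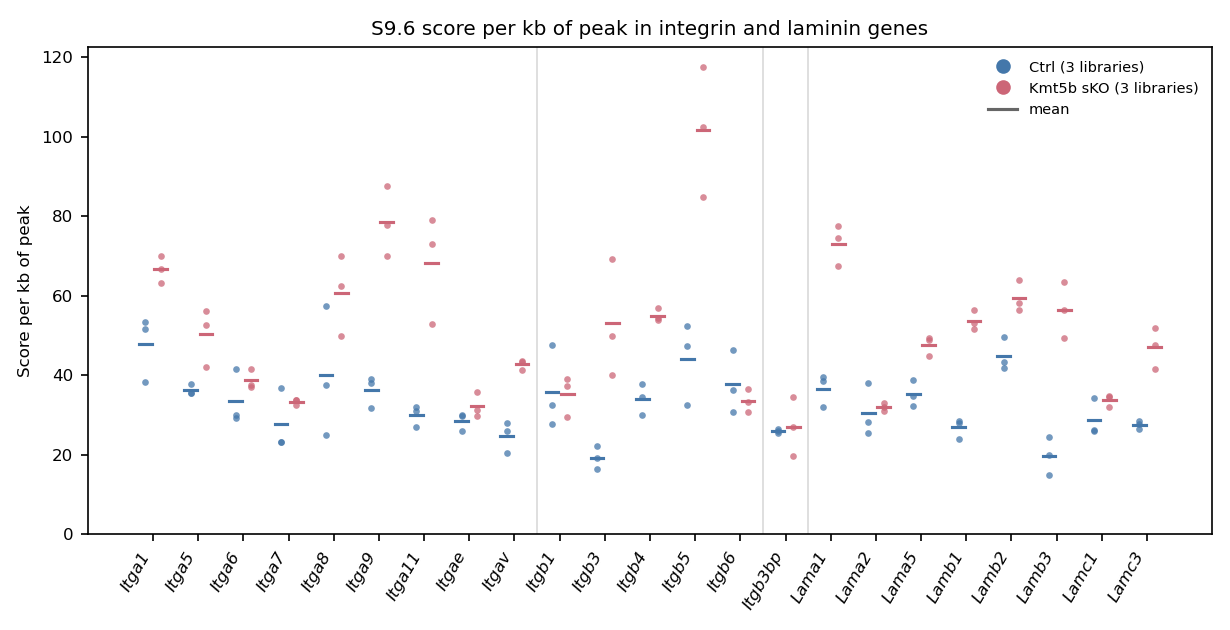
S9.6 score per kb of peak for the 23 integrin and laminin genes with a peak. Each point is 1 library (3 Ctrl, 3 Kmt5b sKO), short bars are means, and grey lines separate integrin alpha, integrin beta, Itgb3bp and laminin genes. Lamb1 lies near 27 in Ctrl and 54 in Kmt5b sKO and Lamb3 near 20 and 56, while Lama2, Itgb1 and Itgb6 overlap between genotypes.

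Of the laminin alpha chains, Lama1 was the only gene called, and Lama2, with most of the family's peaks, was not. Of 41 tested laminin alpha peaks 10 were higher (24.4%, against 22.9% of other gene-body peaks) with a median log2 fold change of 0.22. Lama2 alone carried 37 peaks, 35 of them tested, over a gene of 640 kb. Its summed score was 3249, 4840 and 3589 in Ctrl and 3949, 4200 and 4072 in Kmt5b sKO. Ctrl replicate 2 was the highest of all 6 libraries, so the groups overlapped, with a log2 fold change of 0.09 (SE 0.12, adjusted p = 0.59). Without Ctrl replicate 2 the log2 fold change was 0.25, still short of the fold threshold.

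Within Lama2 the signal was unevenly distributed. The 16 peaks in the part of the gene nearest the TSS, up to 33.3% of its length, summed to 2246 ± 462 in Ctrl and to 2094 ± 25.3 in Kmt5b sKO (SD, n = 3 each), and none was called. This part holds the 2 broadest Lama2 peaks, of 18600 and 16200 bp, with log2 fold changes of −0.21 and −0.22 and adjusted p of 0.24 and 0.22. The 12 peaks of the middle part summed to 1151 ± 273 and 1358 ± 53.0, with 3 called higher, and the 9 peaks of the last part to 496 ± 104 and 622 ± 60.1, with 2 called higher (SD, n = 3 each). The difference between the parts was not tested. The strongest Lama2 gain lay at chr10:27272600-27275399, an intronic peak of 2800 bp whose bases are 94.1% soft-masked as repeats. It scored 54, 60 and 79 in Ctrl and 136, 149 and 174 in Kmt5b sKO, a log2 fold change of 1.25 (SE 0.20, adjusted p = 5.3e-08), where 19.0% of 3619 gene-body peaks of like length were higher. A peak of 1200 bp at chr10:27245200-27246399 followed, with 25, 37 and 33 against 64, 87 and 65 (log2 fold change 1.16, SE 0.29). Both were fully separated between genotypes, but the second was not called under quantile normalization (0.60, adjusted p = 0.11). The remaining 3 called Lama2 peaks had log2 fold changes of 0.63, 0.69 and 0.71.

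Lama5, the alpha chain of laminins in many adult basement membranes, carried 4 peaks whose lengths sum to 63.9% of that of the gene. Part of this length lies outside the gene. Its gene-summed score was 1228, 1098 and 1020 in Ctrl and 1418, 1561 and 1548 in Kmt5b sKO. The libraries were separated, yet the log2 fold change of 0.44 (SE 0.13, adjusted p = 0.0027) did not reach the fold threshold. The end part of the gene is covered by a peak of 24800 bp over 59 exons, at chr2:180171800-180196599, which extends past the gene end. This peak scored 1036, 943 and 881 against 1156, 1244 and 1217 (log2 fold change 0.34, SE 0.13). It also covers Adrm1 and Mir7005, from which its signal cannot be separated.

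The 3 Lama5 peaks nearest the promoter were all called higher, with log2 fold changes of 0.64, 0.85 and 1.33. The largest gain, at chr2:180225600-180227199, is the only member peak centred within 1 kb of a TSS. Its scores were 46, 31 and 34 in Ctrl and 76, 110 and 97 in Kmt5b sKO (SE 0.25, adjusted p = 4.1e-06), and the groups were separated. Among 3253 gene-body peaks of like length 38.7% were higher. The peak covers the annotated promoter, which is shown because it is the only promoter among the 15 member genes with a RefSeq promoter sequence (GRCm38.p6) that a member peak overlaps. It spans 250 bases before to 50 after the start, with runs of at least 3 G in capitals.

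Lama5, promoter, chr2:180225810-180226109, minus strand: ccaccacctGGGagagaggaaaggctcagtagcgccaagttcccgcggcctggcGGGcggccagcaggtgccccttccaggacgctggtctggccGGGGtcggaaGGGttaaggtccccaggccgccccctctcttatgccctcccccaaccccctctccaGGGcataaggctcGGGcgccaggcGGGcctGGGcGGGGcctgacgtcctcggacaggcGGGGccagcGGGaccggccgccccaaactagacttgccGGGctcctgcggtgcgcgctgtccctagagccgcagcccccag

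It held 12 GGG triplets, a number reached by 9.14% of 32851 RefSeq mouse promoters of the same length.

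Lama1, an alpha chain of embryonic laminin, had 2 intronic peaks of 1000 bp each, and its summed score rose from 77, 64 and 79 in Ctrl to 135, 155 and 149 in Kmt5b sKO (log2 fold change 0.99, SE 0.20, adjusted p = 9.4e-06). Under quantile normalization the value was 0.52 and was not called. The Kmt5b sKO libraries were all above the Ctrl libraries in both peaks. Short peaks gained often in this experiment, and 55.7% of 2340 other gene-body peaks of like length were called.

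Itga9 encodes the alpha chain of a receptor for tenascin and osteopontin, and both of its gained peaks are intronic and repeat-rich. The window of 300 bases with the most repeat in the first of them is shown, on the coding strand (GRCm38), because the peak is rich in a simple repeat, though the score is 1 value for the whole peak and does not place the gain within it. Capitals mark exact runs of ACACACAC or its complement.

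Itga9, intronic peak, chr9:118703928-118704227, plus strand: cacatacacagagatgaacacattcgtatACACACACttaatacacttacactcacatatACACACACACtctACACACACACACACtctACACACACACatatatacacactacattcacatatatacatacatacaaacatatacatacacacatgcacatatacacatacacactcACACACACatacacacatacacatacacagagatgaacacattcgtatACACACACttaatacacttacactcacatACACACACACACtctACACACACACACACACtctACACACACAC

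The first Itga9 peak had 236 of its 1200 bases in such runs of alternating A and C, an amount reached by 0.427% of 2810 other gene-body peaks of like length, and the second had 150 of 1000 bases. The run ACACACAC, on either strand, occurred in 8 of 34 member peaks called higher (23.5%) and in 36 of 69 not called higher (52.2%). It occurred in 40.1% and 59.8% of the corresponding other gene-body peaks. Longer peaks hold the run more often, from 20.1% of gene-body peaks near 600 bp to 99.5% near 27600 bp. Peaks not called were longer, with a median of 2400 against 1500 bp in members and 3400 against 1600 bp in the others. These shares therefore cannot say whether the run goes with gains. Only unique alignments entered the scores, so signal over such repeats is incompletely measured.

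The first Itga9 peak scored 32, 40 and 43 in Ctrl and 68, 98 and 94 in Kmt5b sKO, and the second 38, 44 and 43 against 86, 95 and 77. Both pairs of groups were separated. Of the other gene-body peaks of like length 51.3% and 55.7% were called higher. The gene-level log2 fold change was 1.10 (SE 0.19, adjusted p = 1.9e-07). Among the other short repeat-rich peaks was that of Itga8, a chain expressed in mesenchymal cells, which did not pass the level filter. Its 400 bp are 95.0% soft-masked and it scored 23, 10 and 15 against 25, 28 and 20. Of the 34 member peaks called higher 11 were more than 50% soft-masked, and of the 69 not called 6 were. Other gene-body peaks had the same order. Their median soft-masked share was 38.4% where called higher and 21.7% where not, against 33.9% and 22.5% in members.

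Of 14 tested laminin gamma peaks 3 were higher (21.4%, against 22.9% of other gene-body peaks), with a median log2 fold change of 0.30 against 0.25. Lamc1, the common gamma chain of most laminins, carried 15 peaks. Their lengths sum to 45.8% of that of the gene, a part of which lies past the gene end. Lamc1 summed to 1355, 1787 and 1367 in Ctrl and 1823, 1803 and 1668 in Kmt5b sKO. Ctrl replicate 2 lay within the Kmt5b sKO range. The log2 fold change was 0.24 (SE 0.13, adjusted p = 0.11), and without that library it was 0.37. Called were 2 Lamc1 peaks, of which the 600 bp peak at chr1:153313000-153313599 scored 25, 17 and 19 against 52, 30 and 55 (log2 fold change 1.10, SE 0.41). This call was lost under centring on the median peak (0.64, adjusted p = 0.22) and under quantile normalization (0.45, adjusted p = 0.44). The 600 bp peak had a Ctrl mean of 20.3 and passed the level filter only through its Kmt5b sKO scores. Lamc3, a gamma chain with a restricted tissue distribution, summed to 72, 74 and 69 in Ctrl and 124, 108 and 135 in Kmt5b sKO, fully separated (log2 fold change 0.76, SE 0.21, adjusted p = 0.0013). It was 0.44 for libraries centred on the median peak and 0.26 for quantile-normalized ones, and was called under neither.

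**Figure D2:**
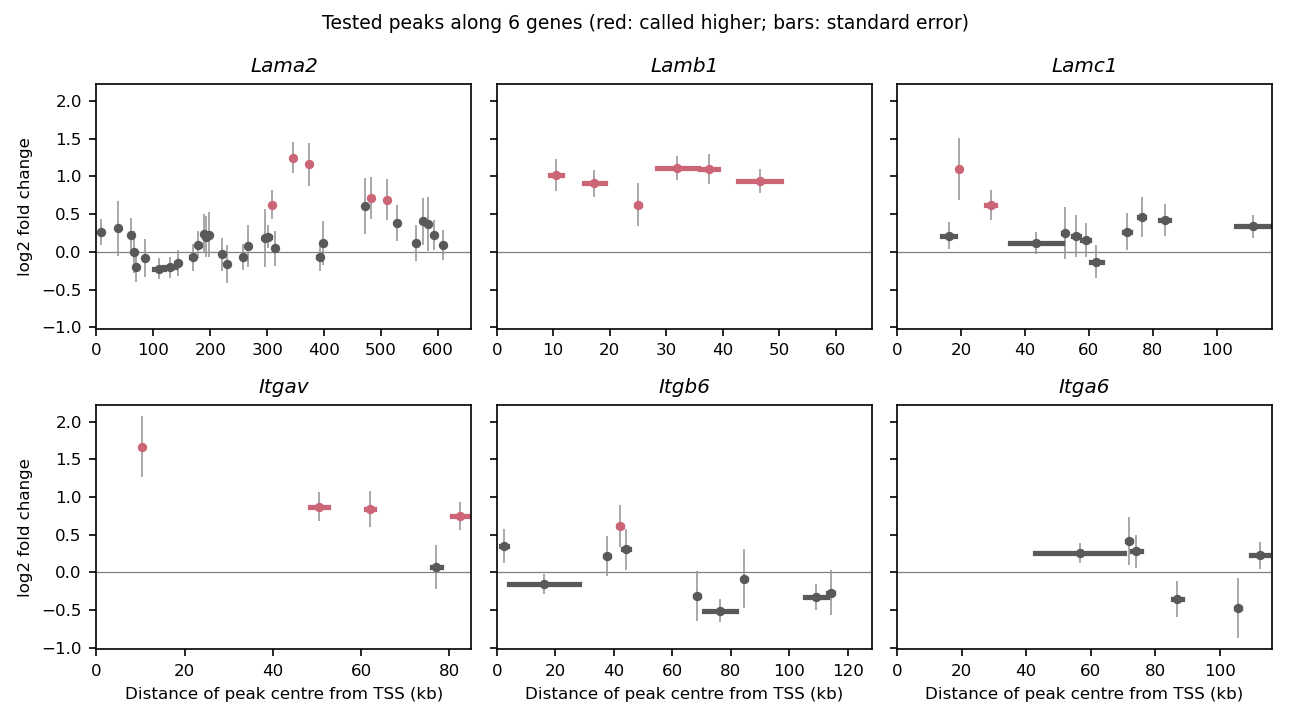
log2 fold change of each tested peak (points, with SE bars) against the distance of its centre from the TSS in kb, for Lama2, Lamb1, Lamc1, Itgav, Itgb6 and Itga6. Horizontal strokes give the length of the peak and red marks peaks called higher. All 6 Lamb1 peaks and 4 of 5 Itgav peaks are red, while the Lama2 gains lie beyond 300 kb and the 5 Itgb6 peaks farthest along the gene are below 0.

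Among integrin alpha chains 8 of 20 tested peaks were higher (40.0%) with a median log2 fold change of 0.44, against 22.9% and 0.25 over the other gene-body peaks. Those shares are not matched for length, and the median difference from gene-body peaks of like length was 0.07. Itgav, the alpha chain of the vitronectin and fibronectin receptors, summed to 250, 317 and 341 in Ctrl and 528, 533 and 506 in Kmt5b sKO. The groups were far apart, with a log2 fold change of 0.80 (SE 0.14, adjusted p = 6.6e-07). Its peak of 600 bp at chr2:83734400-83734999 had the largest fold change of any member peak, from 19, 12 and 20 to 46, 61 and 59 (log2 fold change 1.67, SE 0.40, adjusted p = 0.00037). Of 308 peaks of like length 64.3% were called higher. Longer Itgav peaks of 4000, 2000 and 3600 bp were also higher, with log2 fold changes of 0.87, 0.84 and 0.75, and 1 of 2000 bp was at 0.07. Under centring on the median peak the gene-level value was 0.48 and under quantile normalization 0.56, and neither was called.

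Itga11, a collagen receptor chain of fibroblasts, scored 27, 31 and 32 in Ctrl and 53, 73 and 79 in Kmt5b sKO over a single 1000 bp peak, with separated groups (log2 fold change 1.14, SE 0.30). Of the gene-body peaks of like length 55.7% were called higher. The Itga11 call was lost under quantile normalization, at 0.48. Itga7 marks MuSCs and pairs with Itgb1 as a laminin receptor. Its only peak, of 1600 bp near the gene end at chr10:128955600-128957199, scored 37, 59 and 37 in Ctrl and 54, 52 and 54 in Kmt5b sKO. The groups overlapped through Ctrl replicate 2 (log2 fold change 0.30, SE 0.28, adjusted p = 0.43), and without that library the value was 0.52 and was still not called. Itga6, another laminin receptor chain, held the longest member peak, of 27600 bp at chr2:71788400-71815999, with 917, 1215 and 887 against 1118, 1141 and 1329 (log2 fold change 0.26, SE 0.13, adjusted p = 0.11, and 0.40 without Ctrl replicate 2, not called). None of its 6 peaks was called, and the range was from −0.47 to 0.41. Itga1, Itga5 and Itgae, which encode chains of a collagen, a fibronectin and an E-cadherin receptor, were not called at the gene level, with log2 fold changes of 0.48, 0.46 and 0.17. An Itgae peak of 3200 bp was called higher, with 75, 68 and 74 against 125, 152 and 137.

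Among integrin beta chains 4 of 17 tested peaks were higher (23.5%), near the 22.9% of other gene-body peaks, and the median log2 fold change was 0.21. Itgb3, which pairs with Itgav, rose from 23, 27 and 31 to 56, 70 and 97 over its 1400 bp peak at chr11:104629400-104630799 (log2 fold change 1.40, SE 0.30, adjusted p = 5.0e-05), with no overlap between groups. Of the gene-body peaks of like length 44.1% were called higher. With a Ctrl mean of 27.0 the Itgb3 peak passed the level filter only through its Kmt5b sKO scores. Itgb4, the partner of Itga6 in hemidesmosomes, summed to 235, 257 and 205 in Ctrl and 370, 366 and 387 in Kmt5b sKO, also separated (log2 fold change 0.69, SE 0.15). Its 2 peaks of 1000 bp, a length at which 55.7% of other gene-body peaks were called higher, rose by 1.42 and 1.47 on the log2 scale. Both, with Ctrl means of 19.7 and 17.3, passed the level filter only through their Kmt5b sKO scores. The 4800 bp Itgb4 peak, which overlaps Galk1, was at 0.46. The Itgb4 gene call was lost under each rescaling, at 0.37 for centred and 0.42 for quantile-normalized libraries and at 0.54 when library totals were made equal. Under quantile normalization both 1000 bp peaks lost their call too, with adjusted p of 0.12 and 0.13. Itgb1, the beta chain shared by most matrix receptors of MuSCs, was not called. It summed to 216, 371 and 253 in Ctrl and 304, 291 and 230 in Kmt5b sKO (log2 fold change 0.00, SE 0.15, adjusted p = 0.99). The highest value was that of Ctrl replicate 2, without which the log2 fold change was 0.22.

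Itgb6, an epithelial chain that pairs with Itgav, was the member gene with the lowest fold change. Its 10 peaks covered 42.5% of the gene, and 6 of them had a negative fold change. They summed to 1628, 2448 and 1924 in Ctrl and 1621, 1933 and 1754 in Kmt5b sKO (log2 fold change −0.16, SE 0.12, adjusted p = 0.30). Without Ctrl replicate 2, the highest library, the gene was at −0.0041. Only 1 was above the median of peaks of like length. The 10800 bp peak at chr2:60641000-60651799 scored 253, 416 and 337 in Ctrl and 202, 241 and 253 in Kmt5b sKO, a log2 fold change of −0.51 (SE 0.16, adjusted p = 0.0052) that was short of the fold threshold. Ctrl replicate 1 equalled Kmt5b sKO replicate 3. Its broadest peak, of 24000 bp, scored 955, 1332 and 1084 against 910, 1092 and 1001, a log2 fold change of −0.16. This was −0.027 without Ctrl replicate 2, and after centring on the median peak it was −0.62 and was called lower (adjusted p = 1.1e-12). A 1200 bp peak was called higher at 0.62. Itgb5, another partner of Itgav, had a 400 bp peak that was not tested, with 21, 13 and 19 against 41, 47 and 34, which were separated.

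The rule also admits Itgb3bp, which encodes a kinetochore protein and not an integrin chain. It held the only member peak called lower, of 4000 bp at chr4:99764600-99768599, over 1 exon at the end of the gene. Its scores were 104, 111 and 91 in Ctrl and 50, 87 and 60 in Kmt5b sKO, all below the Ctrl libraries (log2 fold change −0.66, SE 0.22, adjusted p = 0.0092). The call was lost without Kmt5b sKO replicate 1, when the value was −0.49, and when each peak's own variance was used. The other Itgb3bp peak, of 1200 bp, was higher at 1.09, and the sum over the gene had a log2 fold change of 0.02 (SE 0.18). Under the spike-in scaling no peak of an integrin or laminin chain was called lower. After centring on the median peak 16 of the 103 member peaks were, where 11.9% of all tested peaks were, among them the 24000 bp Itgb6 peak and an Itga6 peak at −0.93 that was at −0.47 under the spike-in scaling.

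Over whole genes 9 of 21 tested member genes were called higher (42.9%) and none lower, against 25.7% higher and 0.286% lower among 7348 tested protein-coding genes. These gene shares are not matched for the length or number of peaks. Among the called genes, Itga11, Itgb3, Lama1 and Itga9 each rest on 1 or 2 peaks of 1000 to 1400 bp. The median log2 fold change was 0.46 over member genes and 0.29 over all genes. The libraries were separated in 13 member genes, and in 46.9% of all tested genes. The number called depended on the scaling of the libraries. After centring on the median peak 6 member genes were higher and after quantile normalization 4, where 10.9% and 5.35% of all genes were. Itgav, Itgb4 and Lamc3 lost their call under both, and Lama1 and Itga11 under quantile normalization. Lamb1 and Lamb3 were called under each of these scalings, with lowest values of 0.68 and 1.21, as were Itgb3 and Itga9.

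Fold change depended on peak length, and the member peaks were therefore set against other protein-coding gene-body peaks within 20% of their length. The median difference was −0.04, with quartiles of −0.27 and 0.37, and 48 of 103 members were above their like-length median. By gene, the median difference was 0.77 in Lamb1 (5 of 6 peaks above), 0.55 in Itgav (4 of 5), −0.02 in Lamc1, −0.17 in Lama2 (7 of 35) and −0.39 in Itgb6 (1 of 10). Of the 22 members of up to 1200 bp 72.7% were higher, against 57.0% of 2674 other peaks. Among the 14 members of 6000 bp or more 3 were higher, which are 1 Lamb3 and 2 Lamb1 peaks, against 3.91% of 4686 others. In the class of 1400 to 2400 bp the order was the other way, with 16.7% of 36 members against 32.2% of 6193 others. These are descriptions of peaks that share genes and are not independent.

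**Figure D3:**
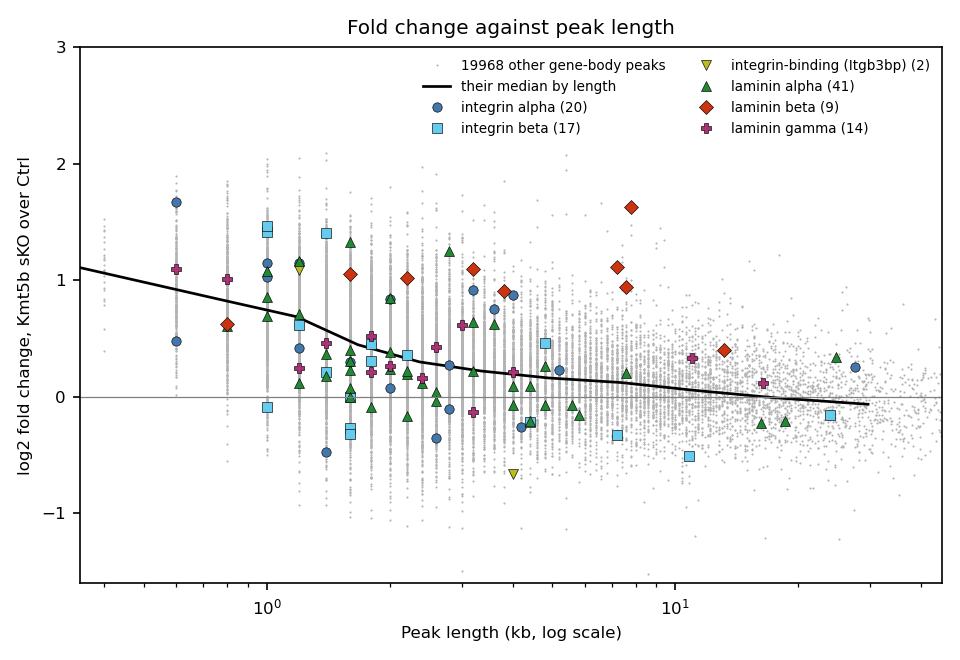
log2 fold change (Kmt5b sKO over Ctrl) against peak length in kb on a log axis. Grey dots are 19968 other protein-coding gene-body peaks, the black line is their median by length, and coloured symbols are the 103 tested member peaks by chain. The line falls with length, the laminin beta peaks lie above it in 8 of 9 cases, and the broad Itgb6 peaks lie below it.

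Because all values share the scaling of their library, ratios between partner genes were taken within each library, where any scale factor cancels. The 10 pairs are chains of one laminin or of one integrin and were chosen after the values above were seen. For Lamb1 over Lama2 the ratio of summed scores was 0.219, 0.144 and 0.166 in Ctrl and 0.334, 0.334 and 0.315 in Kmt5b sKO. All 3 Kmt5b sKO ratios were above the highest Ctrl ratio, with a log2 difference of 0.92 with an SE of 0.18. Its two-sided p by exact permutation was 0.1, below which 3 against 3 libraries cannot go, and 0.125 after Benjamini-Hochberg adjustment over the 10 pairs. For Lamb1 over Lamc1 it was 0.450 ± 0.0681 and 0.757 ± 0.0294 (SD, n = 3), also separated. Lamc1 over Lama2 overlapped between genotypes, at 0.389 ± 0.0249 and 0.434 ± 0.0263 (SD, n = 3, exact permutation p = 0.2).

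Among integrin pairs the ratio of Itgav to Itgb6 was 0.154, 0.129 and 0.177 in Ctrl and 0.326, 0.276 and 0.288 in Kmt5b sKO, a log2 difference of 0.96 (SE 0.15). Itgav over Itgb1 was 1.12 ± 0.249 and 1.92 ± 0.245 (SD, n = 3), and both ratios were separated. Itgav over Itgb3 was 11.2 ± 0.470 in Ctrl and lower, at 7.42 ± 2.11, in Kmt5b sKO, and Itga6 over Itgb4 was 5.90 ± 0.767 and 4.22 ± 0.150 (SD, n = 3 each). Itga6 over Itgb1 overlapped (exact permutation p = 0.4). In all, 8 of 10 ratios were separated, each with an exact permutation p of 0.1. Several pairs, such as Lamb1 with Lama2 and Itgav with Itgb6, set a gene called higher against one not called. Their separation restates the gene values and is not a further test of them. The pairs share genes and are not independent of each other.

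**Figure D4:**
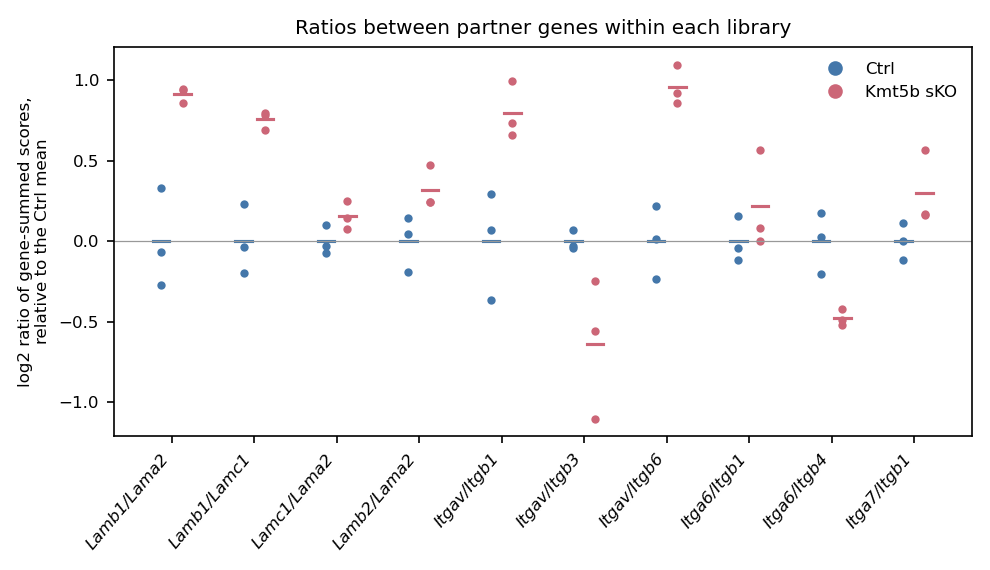
log2 ratio of gene-summed scores for 10 pairs of partner genes in each library, relative to the mean of the 3 Ctrl libraries of that pair. Points are libraries and short bars are means. Lamb1 over Lama2 and Itgav over Itgb6 lie higher in Kmt5b sKO by 0.92 and 0.96, Itgav over Itgb3 and Itga6 over Itgb4 lie lower, and Lamc1 over Lama2 and Itga6 over Itgb1 overlap.

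Levels per kb of peak, which allow genes to be compared, spanned a small range. In Ctrl they ran from 19.3 in Itgb3, 19.8 in Lamb3 and 24.8 in Itgav to 47.8 in Itga1. Lamb3 and Itgb3 were thus the lowest in Ctrl, at values within one another's spread, and reached 56.5 and 53.1 per kb in Kmt5b sKO, above Lama2 at 32.0 and Lamc1 at 33.8. The Ctrl value enters both the level and the fold change, so no relation between them was drawn.

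Of 41 autosomal protein-coding genes of the GENCODE annotation that meet the naming rule 18 carried no peak. They include the leukocyte chains Itgal, Itgam, Itgax, Itgad and Itgb2, the chain Itgb7, the collagen receptor chain Itga2, and Lama3 and Lama4. By chain, 9 of 18 integrin alpha, 5 of 9 integrin beta, 3 of 5 laminin alpha and 3 of 3 laminin beta genes had a peak.

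Genes that act with these chains were followed through 2 lists of related function. Of 31 adhesion genes, which couple integrins to actin, 26 carried a peak, and 19 of their 138 tested peaks were higher (13.8%) and 2 lower. Among all tested peaks 32.9% were higher, and among gene-body peaks outside the members 22.9%. The listed peaks were not restricted to gene bodies. Their median length was 3600 bp, against 2400 and 2800 bp in those sets, so the shares are not matched for length. At the gene level, also not matched for length, 3 of 26 were higher, against 25.7% of all genes, and none lower. Among them were Ptk2b, a focal adhesion kinase relative (log2 fold change 1.19, SE 0.22), and Pxn, a focal adhesion scaffold (0.80, SE 0.21). The talin gene Tln2, with 27 peaks, was at −0.27 and was not called.

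Of 30 genes of the basement membrane and of the dystroglycan complex 19 carried a peak, and 16 of their 107 tested peaks were higher (15.0%) and 5 lower. The same 32.9% and 22.9% apply, again without a match for length, as these peaks had a median of 3200 bp. At the gene level, also not matched for length, 8 of 18 were higher (44.4%, against 25.7% of all genes) and none lower. They were Sgcd (1.43), Sntb2 (1.05), Col4a2 (0.96), Sspn (0.75), Col4a3 (0.69), Fn1 (0.69), Dag1 (0.64) and Dtna (0.61), as log2 fold changes. Dag1 encodes dystroglycan, a laminin receptor of muscle, and scored 75, 90 and 70 in Ctrl and 135, 132 and 101 in Kmt5b sKO. Not called were Hspg2 (perlecan) at 0.02, Utrn (utrophin) at 0.07 and Sntb1 at −0.45 among others, the last with an adjusted p of 0.0011 but short of the fold threshold. Sntb1 was highest in Ctrl replicate 2, at 6447 against 3505 and 4378 in the other Ctrl libraries.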

How the data were processed

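DRIP-seq was measured in 3 Ctrl and 3 Kmt5b sKO libraries, grouped by their labels. The authors trimmed reads (Trimmomatic 0.39), aligned them to mm10 (STAR 2.7.3a, unique alignments), removed duplicates (Picard 2.21.7), called peaks against input, unified them and annotated them with the gene of longest overlap. The deposited score of each peak was summed over the peak, scaled by spike-in reads and rounded, so it is not a read count and no interval for a single score can be given. The distance of a peak centre to the TSS is a column of base pairs deposited by the authors.

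Autosomal peaks with a mean score over 30 were tested with limma 3.58.1 in R 4.3.3 on log2(score + 1), in which genotype was the only term, with a trend in eBayes and Benjamini-Hochberg adjustment over the 25815 peaks tested. The prior degrees of freedom were infinite, so variances came from the trend. Gene values are sums over the peaks of a gene, fitted in the same way over 7348 genes. Fold changes are on the log2(score + 1) scale and understate low peaks. The fit was tested on simulated data. Strand of the signal was not used. Peak coordinates are as the table gives them and may start 1 base before the first base of a browser. GC skew and soft-masked share were read from GRCm38.

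The members and gene lists were chosen with earlier results of these data known. Each member gene is given by library. Peaks given in full are those called lower, the 8 largest gains, the 4 highest mean scores, those within 1 kb of a TSS and the largest change in Itga7, Itgb1, Itga6, Lama2 and Lamc1, and others were named after their values were seen. Scalings, filters, thresholds, variance models, a replicate block and the leaving out of each library were tried as alternatives. Input libraries had no values used here. Some items are not reported here.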

Additional observations from a re-analysis of the deposited data

How the results depend on the processing

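Scaling of the libraries changed most. With the same total per library 26 member peaks (25.2%) were higher and 2 lower, where 21.6% and 3.13% of all tested peaks were. The members' median fell to 0.11 (log2), and the genes Lama2, Itgb1 and Itgb3bp turned to −0.064, −0.15 and −0.13. After centring on the median peak 10.3% of all tested peaks were higher and 11.9% lower. Centring left 15 higher (14.6%) and 16 lower member peaks and a median of −0.15. It turned the peaks of Itga6, Itga7, Itgb1, Lama5 (24800 bp) and Lamb2 to −0.20, −0.16, −0.0032, −0.12 and −0.053, and the genes Itgae, Lama2, Itga7, Itgb1, Lamc1, Itga6 and Itgb3bp to −0.15, −0.23, −0.023, −0.32, −0.077, −0.10 and −0.30. Under quantile normalization 8.02% of all tested peaks were higher and 7.7% lower. Quantile normalization left 11 higher (10.7%) and 8 lower member peaks, 4 higher genes and a median of −0.12. It turned the Itga7 peak to −0.27 and the genes Itga5, Itgae, Itga7, Itgb1, Itgb3bp and Itga1 to −0.10, −0.11, −0.343, −0.292, −0.393 and −0.20. None of the values that turned was called under the spike-in scaling. Whether the spike-in or another scaling is nearer to the R-loop content was not tested.

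Mean scores over 100 left 10 higher (28.6%) and 0 lower member peaks, with a like-length difference of 0.088, as only 35 members remained. All peaks tested at that level were higher in 12.3% and lower in 0.849%. Under each peak's own variance 26 member peaks (25.2%) were higher and 0 lower, where 21.1% and 0.291% of all tested peaks were. A fold over 2 gave 19 higher and 0 lower peaks and 5 higher genes, and no fold minimum gave 2 lower peaks. The 0 counts rest on the Itgb3bp peak alone. The pseudocounts, the omission of the level filter, the fit without a trend, X and Y, the 0.05 threshold and the restriction to peaks centred in their gene left each of these counts within 1.5 times and each median within 1 SD between replicates. The lengths within 50%, with a difference of −0.06, and the match on score per kb, at 0.02, did so too.

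Leaving out each library in turn gave 0 to 2 lower member peaks, the 0 without Kmt5b sKO replicate 1, and a like-length difference from −0.075 to 0.050. The gene values ran from −0.033 to 0.25 in Lama2, −0.17 to 0.22 in Itgb1, 0.19 to 0.52 in Itga7, −0.298 to −0.0041 in Itgb6 and −0.178 to 0.23 in Itgb3bp, the highest without Ctrl replicate 2 for Lama2, Itgb1, Itga7 and Itgb6. The direction of the 10 partner ratios held in each of these. With the replicate block 34 member peaks were higher and 1 lower, as without it. Deviations of same-numbered libraries from their group means correlated from −0.03 to 0.01 over peaks, and those of differently numbered ones from −0.02 to 0.03. Such correlations leave out a shift common to a whole library, so they cannot say whether the numbers pair the samples. The reads behind a single score are not known. For whole libraries, the study lists fewer uniquely mapped reads in each Kmt5b sKO library than in any Ctrl library. Depth thus differs with genotype, and its effect on the scores was not tested. At scores near 30 a peak's fold change carried a standard error of up to 0.42.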

Other observations

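Itgb1bp2, which encodes the muscle-specific integrin-binding protein melusin, lies on X and was outside the comparison. Its 1000 bp peak scored 31, 52 and 31 in Ctrl and 29, 41 and 24 in Kmt5b sKO, which overlap.

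Of the 7 member peaks that did not pass the level filter, 3 were in Lamc1, 2 in Lama2 and 1 each in Itga8 and Itgb5. The Lamc1 peaks scored 27, 45 and 27 against 33, 27 and 19, then 15, 46 and 19 against 15, 18 and 37, then 16, 35 and 16 against 18, 23 and 8. The Lama2 peaks scored 15, 54 and 32 against 25, 42 and 12, and 15, 14 and 10 against 11, 6 and 7. In these 5 peaks the groups overlapped.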
